A study of Rattus norvegicus with 6 samples.

Results

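The nuclear genes of respiratory complexes II to V were compared between infarcted rat hearts given the preparation XHT and infarcted rat hearts without it. Members were the protein-coding rows of the deposited table outside the mitochondrial genome whose symbols name a subunit or assembly factor of succinate dehydrogenase, a subunit of the cytochrome bc1 complex, cytochrome c, a COX5 to COX8 subunit of cytochrome c oxidase, or a gene of the Atp5 family. This gave 53 members among 33509 rows, and 49 of the 53 had enough counts to be among the 14488 genes tested. Libraries XHT 1 to 3 were myocardial tissue of Sprague-Dawley rats with an acute myocardial infarction model treated with XHT, which the series title calls Xinhuitong. The libraries MOD 1 to 3 were myocardial tissue of the same strain and model without XHT, so every library came from an infarcted heart and no uninfarcted heart was analysed here. Age, sex, dose, time after infarction and the part of the heart sampled are not given in the labels, and they do not say if the libraries are of different animals. Every p-value below is thus set against the spread among these 6 libraries, part of which may be technical.

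Oxidative phosphorylation passes electrons from NADH and succinate through membrane complexes to oxygen and uses the proton gradient they build to make ATP. Complex II oxidises succinate, complex III passes the electrons to the mobile carrier cytochrome c, complex IV reduces oxygen, and complex V, the ATP synthase, makes ATP. The heart depends on this route for most of its ATP, and its muscle cells carry muscle forms of several complex IV subunits that other tissues replace with a ubiquitous form. Complex II is encoded wholly in the nucleus, while complexes III, IV and V also contain subunits made from the mitochondrial genome.

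Levels are given as CPM, counts scaled by library size and TMM factors, and a gene is called when its Benjamini-Hochberg adjusted p from edgeR's quasi-likelihood test over all tested genes is under 0.05. Total counts per library lay between 16550007 and 17724689. One library stood apart within its group. MOD 3 was above both MOD 1 and MOD 2 in 47 of the 49 tested members. Its median difference from their mean was 1.65 on the log2 scale. Over all 14488 tested genes MOD 3 was above both in 6001, with a median difference of -0.01. Among the members, the XHT mean was above MOD 3 by a median of 0.58 on the same scale.

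Nearly every tested member had a fold change above 0, and fewer passed the test. Of the 49 tested members, 16 rose and 1, Cox6b2, fell, while 12.4% of all tested genes were called higher and 16.1% lower, together 28.5%. The fold change was above 0 for 47 members, and the median log2 fold change was 1.50, against -0.02 over all tested genes. All 3 XHT libraries lay above all 3 MOD libraries in 43 members, as in 24.7% of all tested genes. They lay below all MOD libraries in 1 member, as in 26.6% of all tested genes. At an unadjusted p under 0.05, 38 members were higher. In either direction, 39 members and 6507 of the 14488 tested genes were under that cut. In bulk tissue, fewer cells of a type and less RNA per cell cannot be told apart.

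The number of calls turned on single libraries. Without MOD 3, 46 members rose, where 23.3% of tested genes did, with a median log2 fold change of 2.29. Leaving out MOD 1 left 1 member called, where 0.87% of genes were, and leaving out MOD 2 also left 1, where 1.54% were. Without XHT 1 edgeR called 0 members higher, where 0.0267% of genes were, with 24 at an unadjusted p under 0.05. Without XHT 2 there were 8, where 9.81% of genes were, and without XHT 3 there was 1, where 0.986% were. With all 6 libraries, DESeq2's Wald test called 38 members higher, where 16.2% of genes were. Scaling to total counts gave 6 members, where 6.38% of genes were called, and moved the median of all genes by about the same step as that of the members, to -0.42 for all genes and 1.13 for the members. Using DESeq2's size factors gave 19 (13.5% of genes), the legacy quasi-likelihood fit 16 (11.6%), leaving out mitochondrial genome genes 16 (12.6%) and no count filter 16 (7.87%). Whichever library was left out, 47 or 48 members had a positive fold change.

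**Figure D1:**
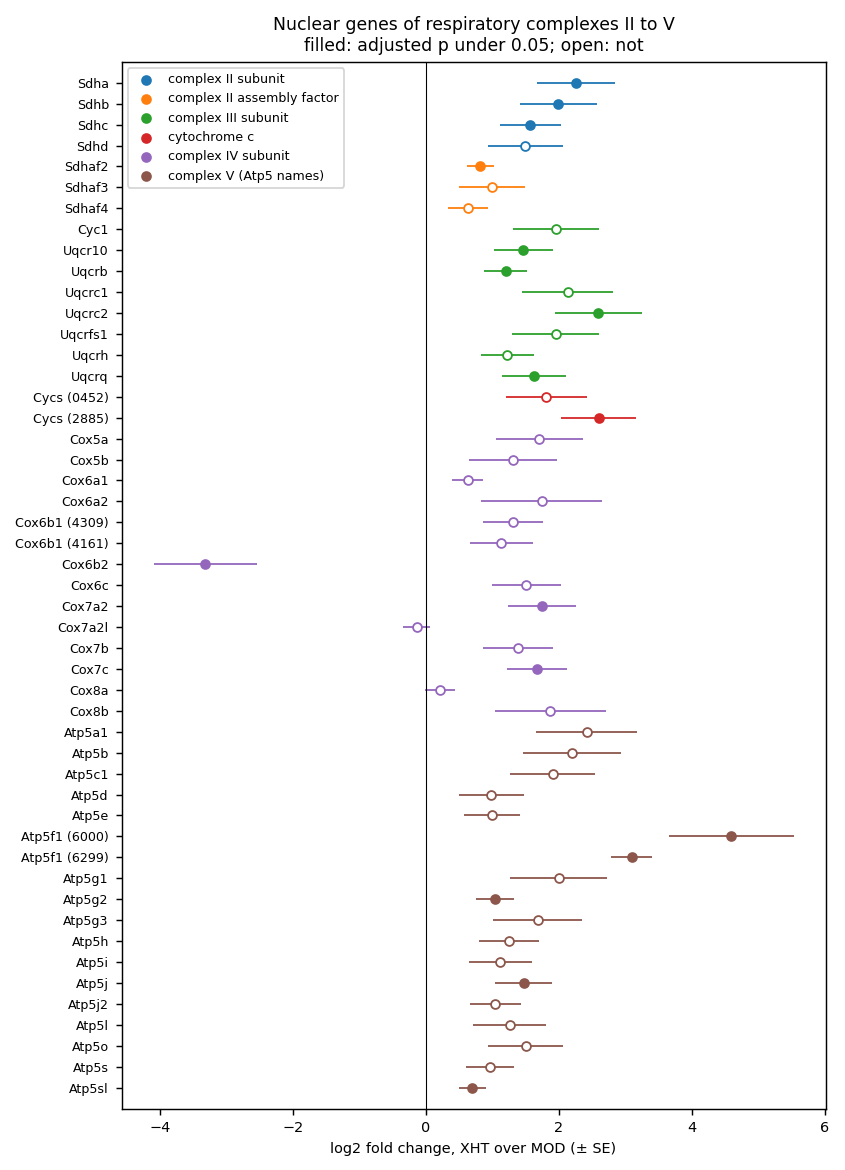
Log2 fold change of XHT over MOD for each tested member, grouped by complex, with bars of 1 standard error; filled points have an adjusted p under 0.05, and members with 2 identifiers carry the last digits of their identifier. All but Cox7a2l and Cox6b2 lie above 0.

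The sequence before the gene start is shown for 6 members with different motif content. RefSeq promoters (build GRCr8) were matched for 43 of 50 member symbols, 40 of them tested, and the 250 bases before the start were searched on both strands. An NRF1 consensus motif of 10 bases was in 6 of the 40 promoters (15.0%), against 5.45% of 19005 promoters of that length. The GABP motif CCGGAAG was in 14 (35.0%), against 9.52%. The ERR motif TCAAGGTCA was in 1 (2.5%), against 0.305%, and the YY1 motif AANATGGC was in 5 (12.5%), against 4.27%. The median GC content was 55.6% in member promoters and 54.8% in all. Capitals mark a motif match on either strand in the sequences below, which are written 5' to 3' in the direction of the gene.
Sdha at chr1:30764303-30764552, plus strand: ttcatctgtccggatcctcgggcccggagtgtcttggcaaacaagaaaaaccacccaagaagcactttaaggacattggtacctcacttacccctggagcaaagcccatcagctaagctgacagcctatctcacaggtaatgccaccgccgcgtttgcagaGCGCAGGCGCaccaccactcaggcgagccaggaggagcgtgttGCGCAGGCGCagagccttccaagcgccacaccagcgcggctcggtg
Uqcrc2 at chr1:184598990-184599239, plus strand: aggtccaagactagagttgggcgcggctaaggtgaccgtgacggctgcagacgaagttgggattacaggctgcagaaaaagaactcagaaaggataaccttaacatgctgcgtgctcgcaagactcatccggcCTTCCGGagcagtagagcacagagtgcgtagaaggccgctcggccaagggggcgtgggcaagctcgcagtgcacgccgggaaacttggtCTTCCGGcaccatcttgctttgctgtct
Cox8b at chr1:205408274-205408523, minus strand: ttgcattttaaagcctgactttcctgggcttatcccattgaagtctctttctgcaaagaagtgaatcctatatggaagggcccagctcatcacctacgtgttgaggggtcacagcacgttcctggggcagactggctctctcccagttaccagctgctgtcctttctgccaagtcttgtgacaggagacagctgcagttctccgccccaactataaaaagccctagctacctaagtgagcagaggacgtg
Cox8a at chr1:213833624-213833873, minus strand: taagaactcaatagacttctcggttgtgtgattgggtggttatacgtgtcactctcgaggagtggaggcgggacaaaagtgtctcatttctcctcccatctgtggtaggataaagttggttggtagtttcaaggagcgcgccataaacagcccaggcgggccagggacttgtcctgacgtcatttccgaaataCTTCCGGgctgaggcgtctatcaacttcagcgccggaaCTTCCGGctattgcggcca
Atp5g3, listed by RefSeq as Atp5mc3, at chr3:79220665-79220914, minus strand: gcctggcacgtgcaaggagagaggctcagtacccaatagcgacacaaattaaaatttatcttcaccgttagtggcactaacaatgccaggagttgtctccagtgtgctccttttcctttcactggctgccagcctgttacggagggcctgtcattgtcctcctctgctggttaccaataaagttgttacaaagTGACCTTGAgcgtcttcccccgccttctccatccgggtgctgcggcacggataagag
Atp5a1, listed by RefSeq as Atp5f1a, at chr18:73567287-73567536, plus strand: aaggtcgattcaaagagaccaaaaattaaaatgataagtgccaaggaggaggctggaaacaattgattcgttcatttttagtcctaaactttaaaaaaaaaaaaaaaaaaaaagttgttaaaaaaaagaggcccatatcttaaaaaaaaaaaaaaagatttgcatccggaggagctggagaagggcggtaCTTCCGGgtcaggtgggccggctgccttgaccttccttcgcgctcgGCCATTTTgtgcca
Sdha holds 2 NRF1 matches, Uqcrc2 and Cox8a hold 2 GABP matches each, Atp5g3 holds the single ERR match, Atp5a1 holds a GABP and a YY1 match, and Cox8b holds none of the 4. Many members not shown also held none of the 4. Among members with a match, the log2 fold change was 2.60 for Uqcrc2 and 0.21 for Cox8a. Among members without one, it was 2.20 for Atp5b and -0.14 for Cox7a2l. A match is a description of the letters and not a bound site, and the part of the motifs in the fold changes was not tested.

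Complex II was higher in XHT, with 3 of its 4 subunits called, where 12.4% of all tested genes were called higher. Sdha, the flavoprotein that binds succinate, had 1058, 664 and 970.2 CPM in XHT 1, 2 and 3, against 96.9, 96.5 and 368 CPM in MOD 1, 2 and 3. It averaged 897 ± 207 CPM in XHT and 187 ± 157 CPM in MOD (SD, n = 3 each), a log2 fold change of 2.26 ± 0.59 (SE, adjusted p = 0.0318, edgeR). The groups did not overlap, and MOD 3 was the highest MOD library. Sdhb, the iron-sulphur subunit, had 704, 610.1 and 757 CPM in XHT, against 90.5, 83.4 and 347 CPM in MOD, with a log2 fold change of 1.99 ± 0.58 (adjusted p = 0.0418, edgeR). Sdhc, a membrane anchor, had 486, 417 and 442 CPM in XHT, against 101, 82.5 and 270.5 CPM in MOD (1.57 ± 0.46 on the log2 scale, adjusted p = 0.043, edgeR). The other membrane anchor, Sdhd, was at 459.7, 412 and 487 CPM in XHT, against 82.4, 78.1 and 321 CPM in MOD, and did not pass (log2 fold change 1.50 ± 0.56, adjusted p = 0.0813, edgeR). In all 4 subunits every XHT library was above every MOD library, as in 24.7% of all tested genes. The 3 calls were lost without MOD 1, MOD 2, XHT 1 or XHT 3, 1 was kept without XHT 2, and all 4 subunits were called without MOD 3.

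Of the complex II assembly factors, 1 of 3 tested passed. Sdhaf2, which helps attach the flavin to Sdha, had 94.1, 79.5 and 84.9 CPM in XHT, against 42.1, 42.3 and 62.2 CPM in MOD, a log2 fold change of 0.82 ± 0.21 (adjusted p = 0.0288, edgeR). Sdhaf3 was at 7.65, 11.4 and 5.17 CPM in XHT, against 2.48, 2.62 and 7.10 CPM in MOD. Its groups overlapped and it did not pass (0.99 ± 0.50, adjusted p = 0.163, edgeR). Sdhaf4 was at 17.8, 21.2 and 17.8 CPM in XHT, against 10.2, 8.40 and 18.0 CPM in MOD, and its groups also overlapped (0.64 ± 0.30, adjusted p = 0.14, edgeR). Sdhaf1 had 1, 3 and 1 counts in XHT and 1, 2 and 3 counts in MOD and was not tested. The Sdhaf2 call was lost without MOD 1, MOD 2, XHT 1 or XHT 3.

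In complex III, 4 of 8 subunits rose, where 12.4% of all tested genes did. In all 8 every XHT library lay above every MOD library, as in 24.7% of all tested genes. Uqcrc2, a core protein of the complex, had 756, 557 and 744 CPM in XHT, against 52.5, 49.2 and 239 CPM in MOD. It had the largest change in the complex, with a log2 fold change of 2.60 ± 0.65 (adjusted p = 0.029, edgeR). The groups were far apart, with the highest MOD library below the lowest XHT library. Uqcrb, a small subunit, had 124, 96.5 and 117 CPM in XHT, against 40.8, 31.8 and 74.3 CPM in MOD (1.20 ± 0.32, adjusted p = 0.034, edgeR), the smallest change in the complex. Uqcrq had 759, 515 and 411 CPM in XHT, against 134, 97.6 and 313 CPM in MOD (1.63 ± 0.48, adjusted p = 0.0444, edgeR). Uqcr10 had 61.0, 57.8 and 40.8 CPM in XHT, against 15.3, 9.39 and 33.0 CPM in MOD (1.47 ± 0.44, adjusted p = 0.0458, edgeR). In both, the groups did not overlap and MOD 3 was the MOD library nearest to XHT. The other 4 did not pass. Cyc1, the haem protein that hands electrons to cytochrome c, had an adjusted p of 0.058, the Rieske protein Uqcrfs1 one of 0.0608, the core protein Uqcrc1 one of 0.054 and the hinge protein Uqcrh one of 0.0551 (edgeR). Their log2 fold changes were 1.96, 1.96, 2.14 and 1.23. The 4 calls were lost without MOD 1, MOD 2, XHT 1 or XHT 3, 2 were kept without XHT 2, and 8 were called without MOD 3.

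Cytochrome c, the soluble carrier between complexes III and IV, is listed under 2 identifiers that may share reads, so each value is uncertain. The copy on chromosome 4 (ENSRNOG00000010452) had 678, 588 and 598 CPM in XHT, against 86.5, 78.7 and 366 CPM in MOD, and did not pass (1.81 ± 0.61, adjusted p = 0.0611, edgeR). The short copy on chromosome 18 (ENSRNOG00000032885, 318 bases long) is placed at 62476383 to 62476700, which leaves no room for an intron. Whether it is a processed copy of the gene was not tested. It had 109, 109 and 95.3 CPM in XHT, against 10.1, 7.46 and 34.2 CPM in MOD. Only this copy was called, with a log2 fold change of 2.60 ± 0.56 (adjusted p = 0.0199, edgeR). Both copies had every XHT library above every MOD library. The call was lost without MOD 1, MOD 2, XHT 1 or XHT 3, and both copies were called without MOD 3.

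Complex IV was the most mixed group. Of 14 tested members among 17, 2 rose and 1 fell, and the median log2 fold change was 1.35. Over all tested genes 12.4% were called higher and 16.1% lower, so the count of calls in complex IV was near the share higher in all genes. Cox7c had 911, 618 and 691 CPM in XHT, against 180.1, 127 and 390.1 CPM in MOD (1.67 ± 0.45, adjusted p = 0.0345, edgeR). Cox7a2, the ubiquitous form of subunit 7a, had 518, 363 and 339.5 CPM in XHT, against 89.0, 55.2 and 221 CPM in MOD (1.74 ± 0.51, adjusted p = 0.0427, edgeR). For both genes every XHT library lay above every MOD library. Cox5a, Cox5b, Cox6c and Cox7b had log2 fold changes of 1.70, 1.31, 1.51 and 1.39 and adjusted p-values of 0.0864, 0.166, 0.0631 and 0.0827 (edgeR). The calls of Cox7c and Cox7a2 were lost without every library in turn except MOD 3, without which 11 members rose. Cox6c1, Cox7b2 and Cox8c were listed at 0 counts in all 6 libraries, which allows up to 0.148 to 0.204 CPM in a library.

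Cox6b2, the testis form of subunit 6b, moved against the rest. It had 2, 18 and 6 counts in XHT, against 144, 149 and 41 counts in MOD, which is 0.133, 1.13 and 0.408 CPM in XHT and 7.59, 7.36 and 2.11 CPM in MOD. It fell by a log2 fold change of -3.32 ± 0.78 (adjusted p = 0.0246, edgeR), with no overlap between groups. It passed the filter on low counts through the MOD libraries and XHT 2. XHT 1 and XHT 3 were too low to count toward the filter, so it was tested because of the MOD libraries. Its call therefore had to favour MOD, and the size of its fold change is uncertain. The call was lost without MOD 1, MOD 2, XHT 1 or XHT 3. With no count filter the log2 fold change was -3.30 (adjusted p = 0.0196, edgeR). Cox7a2l, which links complexes III and IV, had 162, 162 and 175 CPM in XHT, against 218, 156 and 176 CPM in MOD, and the groups overlapped (-0.14 ± 0.20, adjusted p = 0.616, edgeR). Its log2 fold change was 0.0015 without MOD 1. Cox8a, the ubiquitous form of subunit 8, had 179, 167 and 205 CPM in XHT, against 139, 137 and 199.7 CPM in MOD, with overlapping groups (0.21 ± 0.23, adjusted p = 0.49, edgeR). With scaling to total counts its log2 fold change was -0.18.

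In 3 pairs, a muscle form (Cox6a2, Cox8b) or the testis form Cox6b2 of a complex IV subunit was set against the ubiquitous form, and no ratio passed the test. Cox6a2, the form of subunit 6a in heart and skeletal muscle, had 1433, 1025 and 1400.4 CPM in XHT, against 94.0, 99.1 and 962 CPM in MOD (1.74 ± 0.91, adjusted p = 0.176, edgeR). Cox6a1, its ubiquitous partner, had 329, 240.1 and 319.6 CPM in XHT, against 185, 167 and 224 CPM in MOD (0.63 ± 0.23, adjusted p = 0.0794, edgeR). Neither passed, and MOD 3 was close to the XHT libraries for Cox6a2 while MOD 1 and MOD 2 were not. The log2 ratio of Cox6a2 to Cox6a1 counts averaged 2.12 ± 0.02 in XHT and 0.13 ± 1.72 in MOD (SD, n = 3 each). The difference was 1.99 with a two-sided exact permutation p of 0.2, also 0.2 adjusted over 3 pairs. Cox8b, the muscle form of subunit 8 in rodents, had 719, 508 and 414 CPM in XHT, against 56.5, 33.9 and 358 CPM in MOD (1.87 ± 0.84, adjusted p = 0.127, edgeR). Its log2 ratio to Cox8a averaged 1.54 ± 0.50 in XHT and -0.82 ± 1.49 in MOD, a difference of 2.37 (exact permutation p = 0.1, adjusted 0.15). For Cox6b2 against the Cox6b1 copy on chromosome 1, the log2 ratio averaged -9.98 ± 1.53 in XHT and -4.99 ± 1.94 in MOD, a difference of -4.99 (exact permutation p = 0.1, adjusted 0.15). With 3 libraries against 3 the smallest p this test allows is 0.1, so no pair could pass. Cox6b1 itself had 477, 402 and 457 CPM in XHT, against 117, 103 and 319 CPM in MOD on chromosome 1 (1.31 ± 0.45, adjusted p = 0.0651, edgeR). The chromosome 2 copy, listed as a pseudogene in RefSeq, had 60.0, 54.2 and 61.4 CPM in XHT, against 16.7, 13.4 and 49.9 CPM in MOD (1.13 ± 0.47, adjusted p = 0.105, edgeR).

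Another 2 ratios were added after the data were seen and are given without a test. The log2 ratio of Cox4i2 to Cox4i1 was -6.99, -6.36 and -6.49 in XHT, against -4.44, -4.0 and -5.37 in MOD. That of Atp5g1 to Atp5g2, both c-ring subunits of the synthase, was 0.75, 0.74 and 0.27 in XHT, against -1.64, -1.45 and 0.40 in MOD. MOD 3 lay within the XHT range for the second ratio and outside it for the first.

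**Figure D2:**
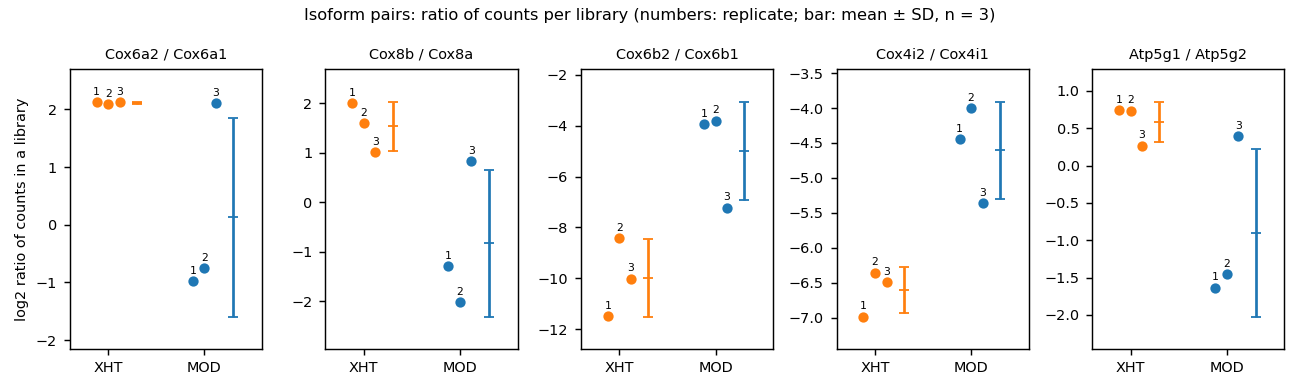
Log2 ratio of the counts of 2 forms of one subunit in each library (points, numbered by replicate) with the mean and SD (bars, n = 3), XHT left of MOD; each panel has its own axis. MOD 3 lies with the XHT libraries for Cox6a2 to Cox6a1, while MOD 1 and MOD 2 lie below 0.

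In complex V, 5 of 18 members rose and none fell, with a median log2 fold change of 1.36. Over all tested genes 12.4% were called higher and 16.1% lower. Atp5b, the catalytic beta subunit, had 8158, 6059 and 8089 CPM in XHT, against 714, 726 and 3404 CPM in MOD, and did not pass (2.20 ± 0.74, adjusted p = 0.0605, edgeR). Atp5a1, the alpha subunit, had 3976, 3048 and 4096 CPM in XHT, against 265, 291 and 1528 CPM in MOD (2.42 ± 0.76, adjusted p = 0.0508, edgeR). Both had every XHT library above every MOD library, with MOD 3 between the other MOD libraries and XHT. Atp5g2, a ring subunit of the membrane rotor, had 452, 321 and 449 CPM in XHT, against 175, 156 and 263 CPM in MOD, and rose (1.04 ± 0.29, adjusted p = 0.037, edgeR). Atp5j, a subunit of the peripheral stalk singled out after its values were seen, had 556, 446 and 469 CPM in XHT, against 123, 106 and 303 CPM in MOD (1.47 ± 0.43, adjusted p = 0.0421, edgeR). Atp5sl, which helps build complex I in human cells and is not a subunit of the synthase, had 65.6, 53.5 and 63.5 CPM in XHT, against 37.1, 29.5 and 45.8 CPM in MOD (0.70 ± 0.20, adjusted p = 0.0412, edgeR). The groups did not overlap for any of these genes. The remaining 11 members had log2 fold changes of 0.96 to 2.00 and did not pass, and Atp5i overlapped between groups. The smallest of these, 0.96, was that of Atp5s, which is likewise no subunit of the synthase core. Without MOD 1, MOD 2 or XHT 3 the calls in complex V came down to 1, without XHT 2 to 3, and without XHT 1 edgeR made none, while all 18 were called without MOD 3.

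Atp5f1, the b subunit of the stalk, is listed under 2 identifiers on chromosome 2 of equal length. Reads may be split between them or missing from both, so the values are uncertain. Both lay far below the stalk subunit Atp5j, which had 556, 446 and 469 CPM in XHT, against 123, 106 and 303 CPM in MOD. The reason for the low levels of both copies was not tested. The copy ENSRNOG00000046299 had 13.0, 9.04 and 11.7 CPM in XHT, against 1.0, 1.28 and 1.65 CPM in MOD (3.10 ± 0.31, adjusted p = 0.00802, edgeR). The copy ENSRNOG00000016000 had 4.85, 9.35 and 43.1 CPM in XHT, against 0.474, 0.494 and 1.39 CPM in MOD (4.59 ± 0.94, adjusted p = 0.0181, edgeR). This copy passed the filter on low counts through the XHT libraries, MOD 2 and MOD 3. It would not have passed without the XHT libraries, where it was high, so its call had to favour them. With no count filter its log2 fold change was 4.60 (adjusted p = 0.026, edgeR). Its XHT 3 value was several times those of XHT 1 and XHT 2, and without XHT 3 the log2 fold change was 3.18 with an adjusted p of 0.0524. Without MOD 1, MOD 2 or XHT 3, ENSRNOG00000046299 was the 1 member still called, at adjusted p-values of 0.0402, 0.0322 and 0.0415, and without XHT 1 its adjusted p was 0.053 (edgeR). The table places ENSRNOG00000046299 at 208566385 to 208577146 and ENSRNOG00000016000 at 208408890 to 208420163 of chromosome 2, both on the minus strand, with no genome build named.

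**Figure D3:**
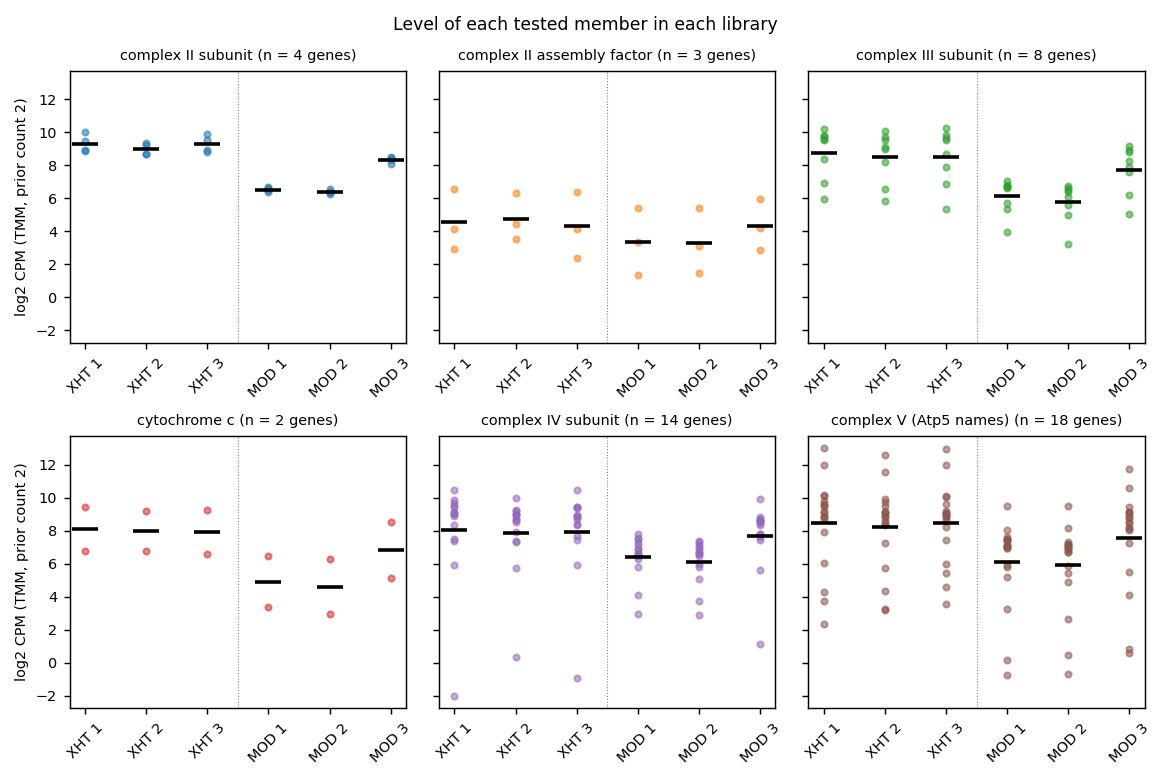
Log2 CPM of each tested member (points) and the mean of its group of genes (bars) in each library, XHT left of MOD. In all 6 groups of genes the mean of MOD 1 and of MOD 2 is below that of every XHT library, and MOD 3 is nearer to XHT.

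Per length, on the authors' deposited FPKM scale, Atp5b and Cox6a2 had the highest levels averaged over all libraries. Atp5b had 4572, 3384 and 4590 FPKM in XHT, against 390.0, 402.6 and 1860 FPKM in MOD. Cox6a2 had 2998, 2137 and 2966 FPKM in XHT, against 192, 205 and 1962 FPKM in MOD. The order of members by mean FPKM differed between the groups in both directions. Cox6a1 was at rank 25 in XHT and 13 in MOD, and Cox8a at rank 33 in XHT and 16 in MOD. Atp5a1 was at rank 3 in XHT and 12 in MOD, Atp5g1 at 10 in XHT and 21 in MOD, and Cox7a2 at 15 in XHT and 22 in MOD. Cox6a2 had 5.03, 4.94 and 5.06 times the FPKM of Cox6a1 in XHT, against 0.588, 0.686 and 4.97 times in MOD. The ratio in MOD 3 lay within the range of XHT.

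Of 4 complex IV genes outside the letters of the rule, edgeR called 0 at the adjusted threshold. An unadjusted p under 0.05 was found for 3 of them. The log2 fold change was above 0 in 2 and below 0 in 2, with a range of -0.92 to 1.63. DESeq2's Wald test called 2 higher and 0 lower, as edgeR did without MOD 3. Scaling to total counts gave 0 higher and 1 lower, and so did leaving out XHT 2. Cox4i1, the ubiquitous form of subunit 4, had 2212, 1555 and 1891 CPM in XHT, against 386, 289 and 1157 CPM in MOD (1.63 ± 0.57, adjusted p = 0.068, edgeR). Cox4i2, a form induced by low oxygen, had 17.4, 19.0 and 21.0 CPM in XHT, against 17.8, 18.0 and 28.0 CPM in MOD (-0.15, adjusted p = 0.625, edgeR). Atpif1, the inhibitor of the synthase, had 187, 126 and 211 CPM in XHT, against 103, 79.3 and 132 CPM in MOD, and overlapped (0.74, adjusted p = 0.0825, edgeR). All 6 genes of complexes III to V on the mitochondrial genome were tested. In 5 of them every XHT library lay above every MOD library, as in 24.7% of all tested genes. By edgeR 0 were called and 0 had an unadjusted p under 0.05, while DESeq2's Wald test called 5 higher. Their log2 fold changes were 0.56 to 0.95, with adjusted p-values of 0.188 to 0.427 by edgeR. The libraries were poly(A) selected, and the part of that in these levels was not tested. The mean log2 CPM of the 6 was 13.81, 13.90 and 13.98 in XHT, against 13.21, 12.70 and 13.37 in MOD.

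Of 32 tested assembly and regulation genes outside the members, 11 rose and 0 fell, with a median log2 fold change of 0.77. Over all tested genes 12.4% were called higher and 16.1% lower. The log2 fold change was above 0 in 30 of the 32. In 23 every XHT library lay above every MOD library, as in 24.7% of all tested genes. Nrf1, Gabpa and Yy1, whose motifs were searched above beside the ERR motif, did not pass. Their log2 fold changes were -0.00, 0.14 and 0.12 (adjusted p = 0.991, 0.533 and 0.588, edgeR). Esrrb, of the ERR family, is given below. The part of these factors in the members' differences was not tested. Coa5, a factor for complex IV assembly, had 231.6, 185.6 and 229.2 CPM in XHT, against 45.7, 42.2 and 94.0 CPM in MOD (1.83 ± 0.34, adjusted p = 0.0152, edgeR). Lrpprc, which stabilises mitochondrial mRNAs, had 205, 148 and 167 CPM in XHT, against 37.2, 37.0 and 87.0 CPM in MOD (1.69 ± 0.37, adjusted p = 0.0213, edgeR). Higd1a and Atpaf2, an assembly factor of the synthase, had log2 fold changes of 1.18 and 0.94 (adjusted p = 0.0179 and 0.0188, edgeR). Of 13 tested regulators, 7 rose and none fell, with a median of 1.06, beside the same shares over all tested genes. Tfb2m and Tfam, needed for transcription of the mitochondrial genome, had log2 fold changes of 1.06 and 0.80 (adjusted p = 0.0162 and 0.0215, edgeR). The coactivator Ppargc1b had 14.2, 6.78 and 7.08 CPM in XHT, against 1.21, 1.88 and 3.40 CPM in MOD (2.11 ± 0.48, adjusted p = 0.0228, edgeR). The nuclear receptor Esrrb had 81, 30 and 65 counts in XHT, against 1, 0 and 11 counts in MOD. It passed the filter on low counts through the XHT libraries, so its call (adjusted p = 0.025, edgeR) had to favour them and the size of its fold change is not given. Without MOD 1, MOD 2, XHT 1 or XHT 3 neither list had a call. In the assembly list 21 genes were higher and 0 lower without MOD 3, and 4 higher and 0 lower without XHT 2. Among the regulators 8 were higher and 1 lower without MOD 3, and 7 higher and 0 lower without XHT 2. With scaling to total counts, 3 genes were higher and 1 lower in the assembly list, and 6 higher and 2 lower among the regulators.

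Marker lists of cell types were measured beside the members. The summed CPM of 13 tested cardiomyocyte genes was 79944, 49063 and 75341 in XHT, against 3314, 2866 and 33836 in MOD. The log2 fold change was above 0 in all 13 (median 2.21), 1 of them, Ryr2, was called, a call lost without MOD 1, MOD 2, XHT 1 or XHT 3, and 13 were called without MOD 3. No cardiomyocyte, fibroblast or macrophage gene tested was at 0 in all libraries. DESeq2's Wald test called 7 of the 13 cardiomyocyte genes higher. Summed over 10 fibroblast genes, the CPM was 2054, 5069 and 2587 in XHT, against 55592, 63582 and 23785 in MOD, and 8 of them fell. Over 10 macrophage genes it was 775, 1100.2 and 867 in XHT, against 3937, 3240 and 2268 in MOD, and 7 of them fell. The mean log2 CPM of the members minus that of the cardiomyocyte genes was -3.79, -3.28 and -3.69 in XHT, against -1.28, -1.34 and -3.23 in MOD. Of the 4 genes on the brown adipose list only 2, Cidea and Plin5, were tested. They had log2 fold changes of 2.48 and 2.65 with every XHT library above every MOD library. They did not pass by edgeR (adjusted p = 0.0605 and 0.0738) and were both called higher by DESeq2's Wald test, and Ucp1 was listed at 0 in all libraries. Among other lists, 1 of 7 endothelial, 3 of 7 smooth muscle and 1 of 3 skeletal muscle genes fell, where 16.1% of all tested genes did. The log2 fold change was above 0 in 4 endothelial, 2 smooth muscle and 1 skeletal muscle genes, with list medians of 0.17, -1.15 and -0.09. DESeq2's Wald test called 2 endothelial genes higher and 1 lower, and 1 smooth muscle gene higher and 4 lower. The edgeR calls in these lists were lost without MOD 1, MOD 2, XHT 1 or XHT 3. Under the same 4 omissions, 2, 3, 0 and 1 fibroblast genes and 5, 6, 0 and 5 macrophage genes were called lower by edgeR. The part of these cell types in the members' differences was not tested.

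**Figure D4:**
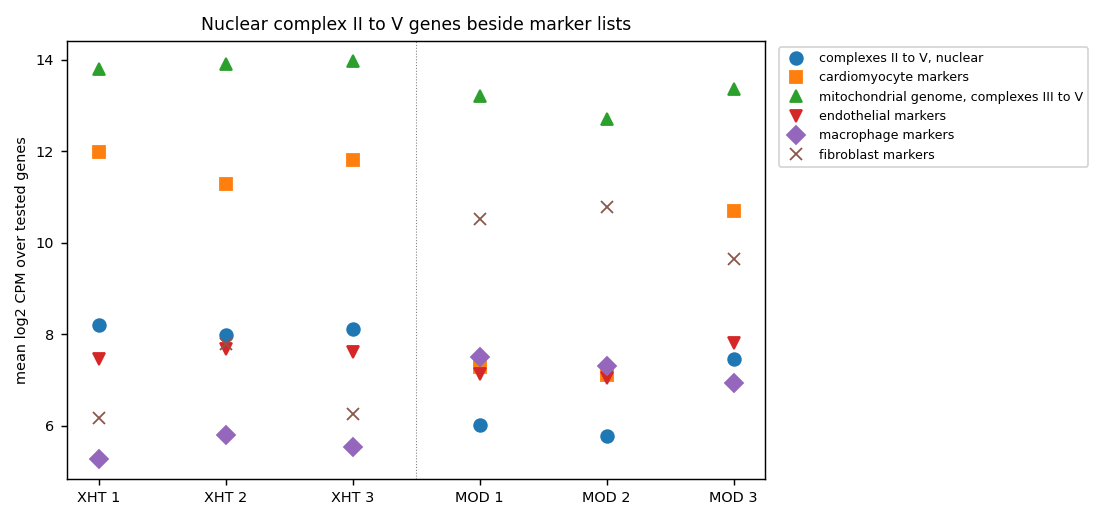
Mean log2 CPM of the tested members, of marker lists and of 6 mitochondrial genome genes in each library, XHT left of MOD. MOD 3 is nearer to XHT than MOD 1 and MOD 2 are for members and cardiomyocyte genes, while the fibroblast mean of MOD 3, 9.66, stays nearer to the 10.52 and 10.77 of MOD 1 and MOD 2 than to XHT.

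In the authors' deposited table, 50 members were present, of which 38 were higher and 1 lower at an adjusted p under 0.05. The share over all genes of that deposited comparison was not counted. In the DESeq2 Wald test run here, which also called 38 members higher, 16.2% of genes were called higher.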

How the data were processed

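Myocardial RNA was sequenced in 6 libraries, XHT 1 to 3 and MOD 1 to 3. Per the labels' protocols, polyadenylated RNA was selected and libraries carried dUTP strand marking and molecular identifiers; use of the identifiers in counting is one of several items not given in the sources used here, as are the strand setting, the genome build and the order of tools. Per the submitters' processing notes, the tools were DESeq2 1.16.1, featureCounts 1.5.0-p3, StringTie 1.3.3b and HISAT2 2.0.5.

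Tests used the raw counts per gene and library that the authors deposited. The deposited FPKM values were used only to compare levels between genes per length. The deposited group means, a signal scale, were not used. The deposited log2 fold changes, with their p-values, were used only for the count of calls.

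Counts were analysed in R 4.3.3 with edgeR 4.0.16 and limma 3.58.1: TMM scaling, filterByExpr (minimum count 10, minimum total 15) and a quasi-likelihood fit with robust options, XHT over MOD, with Benjamini-Hochberg adjustment over 14488 genes and a threshold of 0.05. The common biological coefficient of variation was 0.348. Log2 isoform ratios used a pseudocount of 0.5 and exact permutation in scipy 1.17.1. Limits for 0 counts use 3 counts and cover counting error only. The fit was tested on simulated data. No pair of libraries was a duplicate, the smallest chi-square, divided by its degrees of freedom, being 45.6. Alternatives were DESeq2 1.42.0 (Wald test), its size factors, total count scaling, no filter, no mitochondrial genome genes, a replicate block and each library left out. The legacy quasi-likelihood fit was added after seeing the data.

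Within each role, up to 4 called members of lowest p, the largest and smallest fold changes, every member with a negative fold change, isoform pairs and the 2 highest levels per length are named. Atp5j, Atp5a1, Cyc1, Uqcrc1, Uqcrfs1, Uqcrh, Cox5a, Cox5b, Cox6c, Cox7b, Atp5s and Atp5i were added after their values were seen. The members and gene lists were chosen with earlier results of these data known.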

Additional observations from a re-analysis of the deposited data

How the results depend on the processing

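The count of members called higher was 16 in the main fit, 38 with DESeq2's Wald test and 6 with total count scaling. With the replicate block it was 34, where 14.5% of genes were called higher. With each library left out in turn it was 0 to 46. The count called lower, 1, was 0 without MOD 1, MOD 2, XHT 1 or XHT 3. Over all genes, total count scaling gave 925 higher and 4320 lower, since it moved the median of all genes to -0.42 on the log2 scale; leaving out a library gave 4 to 3487 higher and 4 to 3421 lower. The members' median log2 fold change was 1.17 to 2.29 with 1 library left out, the highest without MOD 3. The log2 fold change of Cox7a2l was -0.24 to 0.0015 with 1 library left out, the highest without MOD 1, and that of Cox8a was -0.18 with total count scaling; the cause was not tested. The other alternatives, DESeq2 size factors, no mitochondrial genome genes, no filter and the legacy fit, gave 16 to 19 members called higher.

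Same-numbered libraries correlated by -0.07, 0.25 and 0.12 in their deviations from group means. Of the XHT libraries, 2 correlated best with the MOD library of their own number. So few libraries cannot settle whether the numbers pair the samples, and the labels do not say that they do. The replicate block (34 members called higher) is therefore given only in this section. Depth does not limit most members, whose levels are far above 3 counts, but Sdhaf1 and 3 complex IV genes at 0 could not be tested.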
